A study of Mus musculus with 9 samples.

Results

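The rows named Fcer2a, Cd79a, Cd79b, Cd22, Ms4a1 and Cr2 were examined in the bone marrow (BM) transcriptomes of transplanted and healthy mice. The names are those of 6 genes of mature B cells among the 53172 rows of the count table, and they were proposed from earlier results of the same counts, so their values are given as a description. Rows with a mean under 10 counts over the 9 mice were set aside, which left 4 of the 6. Of the rows set aside Ms4a1 came closest to this limit, with a mean of 1.44 counts, and Fcer2a and Cd79a, with 45.6 counts each, were the lowest of those kept. A total of at least 10 counts over the 9 mice would have kept 5 of the 6, with Ms4a1.

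BM was collected 2 weeks after transplantation from 3 mice in each of 3 groups. Mice of the BMT group and of the group labelled CDSCs, which was named isoCDSCs-T in the study, were 16 weeks old, received 9.5 Gy of whole-body irradiation and then 500000 cells through a vein. These cells were BM cells of newborn or adult C57BL/6J donors in the BMT group, and cells released by enzymes from the costal cartilage of newborn donors, an unsorted preparation, in the CDSCs group. Health mice were of the same age and were neither irradiated nor transplanted. Donor cells could be told from recipient cells by a CD45 allele or by the fluorescent protein ZsGreen, but the count table does not separate the recipient cells that remained from the donor cells. The labels describe the sequenced material as all cells of the marrow, whereas the methods of the study split it with beads into a CD45+ and a CD45- fraction, took as much of each for sequencing and joined the reads after equalising their depth. Poly(A) RNA was captured. The labels number 3 mice in each group and say nothing more about how separate they were, so p-values measure the spread between these samples. In such bulk samples, fewer cells of a type and less RNA per cell cannot be told apart.

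B cells recognise antigen through a membrane immunoglobulin that cannot signal by itself. Cd79a and Cd79b encode the paired chains that carry the signal of this receptor into the cell, Cd22 encodes a sialic acid-binding receptor that dampens it, and Cr2 encodes the complement receptor CD21, which lowers the threshold for activation. Ms4a1 encodes CD20, a membrane protein found from the late precursor stages onward, and Fcer2a encodes CD23, the low-affinity receptor for IgE that marks follicular B cells. In BM, B cells develop from precursors that already carry Cd79a and Cd79b, and mature cells that express CD23 return there from the circulation.

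The names of the rows were checked against marrow markers. Of 206 genes in lists for B cells and other marrow cells, 205 had a row, 41 of these had 0 counts in all 9 mice, and 125 had a mean under 10 counts. Among 40 other B-cell surface genes, those at 0 in every mouse included Cd74, Cd53, Cd83, Fcrl1, Tnfrsf13b, Tnfrsf13c, Ly6d, Siglecg, Tlr9, Il4ra and Il21r. The same held for Btk, Plcg2, Pik3r1, Bcl10, Dapp1 and Rasgrp3 of 30 genes of B-cell receptor signalling, for Bcl6 and Xbp1 of 25 transcription factors and for Rag1, Vpreb1 and Igll1 of 12 genes of early B cells. Genes that are abundant in any marrow were also at 0, among them S100a8, Camp, Ctsg and Retnlg of neutrophils, Hbb-bs, Hbb-bt, Alas2 and Epor of the erythroid lineage, and Tmsb4x. Others at 0 were Cd2, Lat, Nkg7 and Gzma of T and NK cells, Adgre1 and Ccr2 of macrophages and monocytes, Prnp of the follicular dendritic cell list, and Pdgfra and Adipoq of stroma. Of 12 genes that every cell uses, led by Ywhaz and Gapdh, 7 had a mean under 10 counts. The highest row of the table, at a mean of 350395 counts, was Olfr648, named for an olfactory receptor. The data therefore go against the names, and each value given here belongs to a row of the table and cannot be read as the transcript level of the gene or as a number of B cells.

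The annotated genes lie apart in the genome. In GENCODE M21, on build GRCm38, Fcer2a (ENSMUSG00000005540.10) is on the minus strand at chr8:3681737-3694175, Cd79a (ENSMUSG00000003379.7) on the plus strand at chr7:24897381-24902197 and Cd22 (ENSMUSG00000030577.14) on the minus strand at chr7:30865402-30880342. Cd79b (ENSMUSG00000040592.11) is on the minus strand at chr11:106311341-106314762, Ms4a1 (ENSMUSG00000024673.9) on the minus strand at chr19:11249675-11266241 and Cr2 (ENSMUSG00000026616.15) on the minus strand at chr1:195136811-195176716. All are protein-coding, and the counts are sums over the exons of a gene. The exon length that the ratio of count to TPM (counts scaled by exon length and library, a level per length) gave for a row matched the exons of the named gene in M21 within 1% for 25839 of 26970 rows, which is 95.8%. For Fcer2a it was 3092 bases, for Cd79a 1457, for Cd79b 1431, for Cd22 5042 and for Ms4a1 6187, each the same as in M21, and for Cr2 it was 8145 against 8112. The length used for a row was thus that of its named gene, while the counts in it were not checked by this.

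Libraries held between 8741155 and 10181289 counts, so that 3 counts, taken as the floor, stood for 0.295 to 0.343 CPM (counts per 1000000 counts of the library). The 3 CDSCs mice were less alike than the mice of the other groups: the mean correlation of a mouse with its group mates, over log2 CPM of the genes tested, was 0.948 for CDSCs mouse 1 and 0.954 for CDSCs mouse 3, against 0.967 to 0.982 for the others. CDSCs mouse 1 also stood apart in rows named for B-cell genes, in both directions: Pax5 held 15909 counts in it against 3425 and 707 in CDSCs mice 2 and 3, Cd72 6802 against 1416 and 530, and Blnk 2122 against 507 and 120, whereas Cd38 held 44 against 227 and 434, Cd81 2 against 20 and 70 and Bst1 47 against 284 and 533. Of 12572 genes that passed the filter on low counts, the quasi-likelihood test of edgeR, adjusted over all of them by the Benjamini-Hochberg method, called 2134 between CDSCs and Health, 307 between BMT and Health and 129 between CDSCs and BMT, at an adjusted p-value under 0.05. The CDSCs and BMT comparisons with Health use the same 3 Health mice.

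Of the signalling chains of the receptor, the row named Cd79b was at the same level in the 3 groups within the spread of the mice. Its counts were 799, 781 and 828 in Health, 844, 846 and 840 in BMT and 659, 811 and 809 in CDSCs. CDSCs mouse 1 was the lowest of all, and the CPM of the groups overlapped in every comparison. The means were 85.1 ± 6.87 CPM (SD, n = 3) in Health, 88.4 ± 4.92 in BMT and 80.3 ± 14.2 in CDSCs. The log2 fold change was -0.15 (SE 0.148) for CDSCs over Health, -0.03 (SE 0.148) for BMT over Health and -0.12 (SE 0.148) for CDSCs over BMT. The sign of the BMT difference from Health depended on the scale, since it was 0.082 on log2(TPM + 1).

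The row named for the partner chain, Cd79a, was lower and differed more between groups. It held 32, 56 and 42 counts in Health, 55, 79 and 59 in BMT and 27, 25 and 35 in CDSCs. The BMT mice were the highest and did not overlap with either other group in CPM, whereas the CDSCs and Health mice overlapped. Mean levels were 4.54 ± 0.977 CPM in Health, 6.72 ± 1.16 in BMT and 3.08 ± 0.803 in CDSCs. BMT was above Health by 0.48 on the log2 scale (SE 0.282), and 18.6% of all genes tested had BMT above Health with no overlap. CDSCs differed from BMT by a log2 fold change of -1.11 (SE 0.29), and 12.6% of all genes had CDSCs below BMT with no overlap. For CDSCs over Health the log2 fold change was -0.63 (SE 0.294). The 410 counts of this row in all 9 mice limit its precision: the mean CPM ratio of BMT to CDSCs was 2.18, and the ratio of summed counts, 2.21, had a 95% exact interval of 1.71 to 2.89, which covers counting error only.

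The row named Cd22, the inhibitory receptor, was the highest of the 6 in counts. It held 2668, 3259 and 2911 counts in Health, 2893, 2977 and 3450 in BMT and 2826, 3102 and 2383 in CDSCs. No group stood apart, and the groups overlapped in all 3 comparisons. Its means were 310.8 ± 11.8 CPM in Health, 325.0 ± 22.9 in BMT and 290.1 ± 26.0 in CDSCs. The log2 fold changes were -0.17 (SE 0.115) for CDSCs over Health, -0.02 (SE 0.115) for BMT over Health and -0.14 (SE 0.115) for CDSCs over BMT. Here too the sign for BMT over Health changed with the scale, to 0.065 with scaling by library size only and to 0.087 on log2(TPM + 1).

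The rows of the remaining membrane proteins were close to empty. Ms4a1, the row named for CD20, held 0, 1 and 1 counts in Health, 0, 0 and 1 in BMT and 8, 0 and 2 in CDSCs. Of these 13 counts 8 came from CDSCs mouse 1, the only mouse above the floor of 3 counts. Cr2, the row named for CD21, held 0 counts in all Health and BMT mice and 0, 1 and 1 in CDSCs. No fold change is given for either row, since neither passed the limit of 10 counts and neither was tested.

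The row named Fcer2a was the only one of the 4 kept in which all 3 groups stood apart. It held 115, 131 and 78 counts in Health, 13, 21 and 41 in BMT and 7, 1 and 3 in CDSCs. Every Health mouse was above every BMT mouse and every BMT mouse above every CDSCs mouse. In CDSCs, mouse 1 alone was above the floor of 3 counts, and it supplied 7 of the counts of its group. The order of CDSCs below BMT below Health with no overlap was found in 175 of the 12572 genes tested, which is 1.39%. Taken singly, CDSCs were below Health with no overlap in 14.7% of these genes, BMT below Health in 10% and CDSCs below BMT in 12.6%. Mean levels were 11.4 ± 2.63 CPM in Health, 2.58 ± 1.40 in BMT and 0.378 ± 0.294 in CDSCs.

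**Figure D1:**
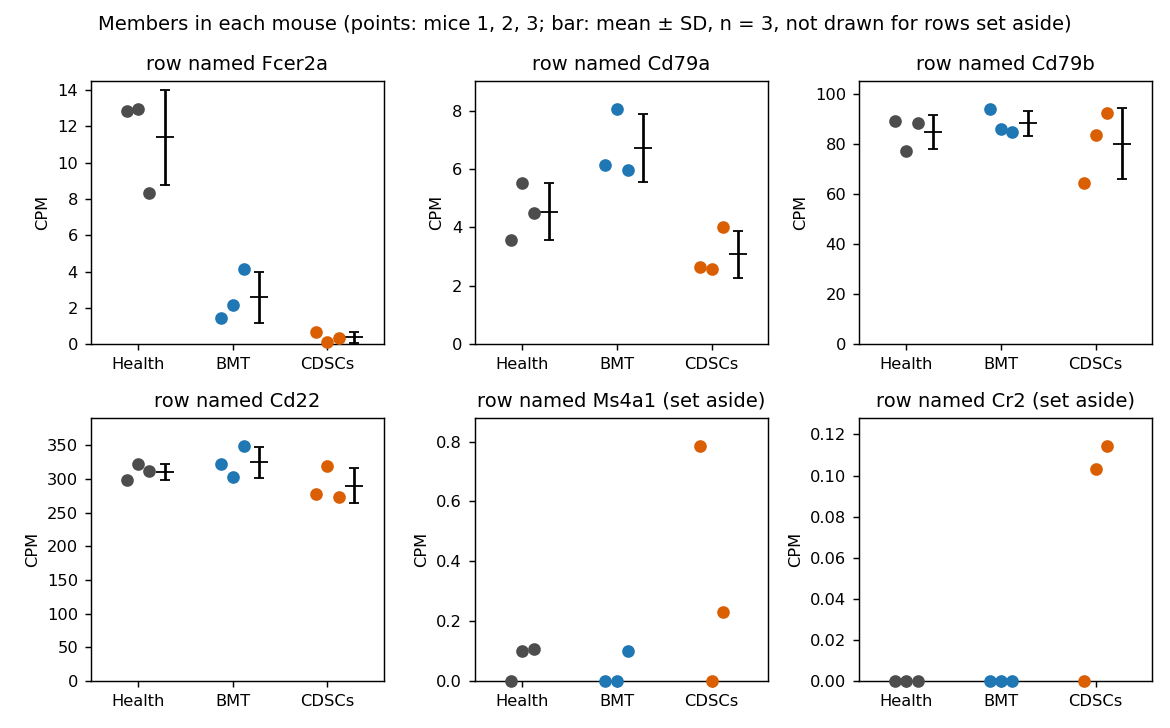
CPM (counts per 1000000) of the 6 rows in each mouse, with a panel and a linear y axis of its own for each row. Points are mice 1, 2 and 3 of each group from left to right, and bars give the mean ± SD (n = 3) for the 4 rows with a mean of at least 10 counts. The row named Fcer2a falls from 11.4 CPM in Health to 2.58 in BMT and 0.378 in CDSCs with no overlap, while the groups overlap for Cd79b and Cd22.

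In fold terms, the mean CPM of the Fcer2a row in Health was 30.1 times that in CDSCs and 4.41 times that in BMT, and the mean of BMT was 6.82 times that of CDSCs. For the summed counts, scaled to the summed library totals, the 95% exact intervals of these ratios were 16.4 to 60.1, 3.38 to 5.68 and 3.59 to 14.2, which cover counting error and not the spread between mice. The log2 fold change was -4.92 (SE 0.554) for CDSCs over Health, the 9th lowest of 12572 genes, -2.23 (SE 0.44) for BMT over Health, the 55th lowest, and -2.69 (SE 0.583) for CDSCs over BMT, the 34th lowest. The value against Health depended on CDSCs mouse 1, without which it was -5.70, and that against BMT was then -3.47. On log2(TPM + 1), which compresses low values, the differences were smaller, at -2.80 for CDSCs over Health and -1.11 for CDSCs over BMT.

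Among the 4 rows kept, 1 was called between CDSCs and Health, where 17.0% of all genes were called, and 1 between BMT and Health, where 2.44% were called. Fcer2a was the row called both times. Its call between BMT and Health was lost in 5 fits, those with the replicate block and without Health mouse 1, Health mouse 2, BMT mouse 1 or BMT mouse 2, and was made in 8 of 13 alternatives. Between CDSCs and BMT the quasi-likelihood test of edgeR called 0 of 4, where 1.03% of all genes were called. In that comparison 2 of the 4, Fcer2a and Cd79a, had an unadjusted p-value under 0.05, and both were called by DESeq2 and by edgeR's likelihood ratio test. Over all genes DESeq2 called 706 and the likelihood ratio test 730 there, against 129 with the quasi-likelihood test. The share of all genes under the unadjusted threshold was not computed, here or for the lists below. Because the rows were chosen from these contrasts, nothing is read from these counts. The median log2 fold change of the 4 rows was -0.40 for CDSCs over Health, -0.03 for BMT over Health and -0.63 for CDSCs over BMT, beside -0.02, -0.02 and 0.01 over all genes.

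**Figure D2:**
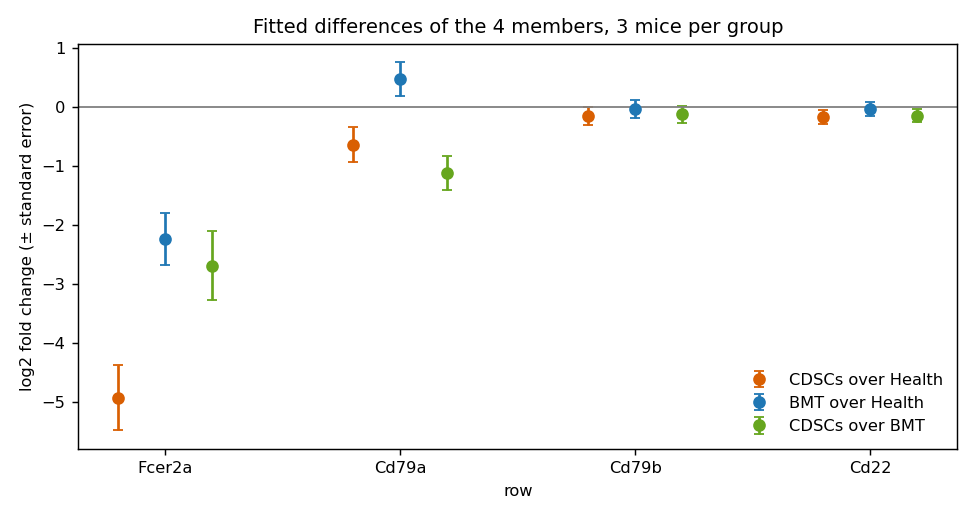
Log2 fold change (y axis, ± SE from the edgeR fit over all genes) of the 4 rows kept, for the 3 comparisons. Fcer2a lies at -4.92, -2.23 and -2.69, and Cd79b and Cd22 lie within 0.2 of 0 in each comparison.

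On the scale per length, the rows differed from each other far more than most of them differed between groups. Over the 9 mice, Cd22 ranged from 112.7 to 148.2 TPM, Cd79b from 92.6 to 143.3, Cd79a from 3.73 to 12.04 and Fcer2a from 0.0733 to 8.82. Cd22 and Cd79b could not be ordered, since their TPM ratio ran from 0.836 to 1.22, and both were above Cd79a in every mouse. Cd79a and Cd79b encode chains that pair with each other in the receptor, and the TPM of the row named Cd79b was between 10.9 and 33.0 times that of the row named Cd79a. Fcer2a was above Cd79a in Health mice 1 and 2 and below it in the other 7 mice, with overlapping ranges over the 9 mice.

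**Figure D3:**
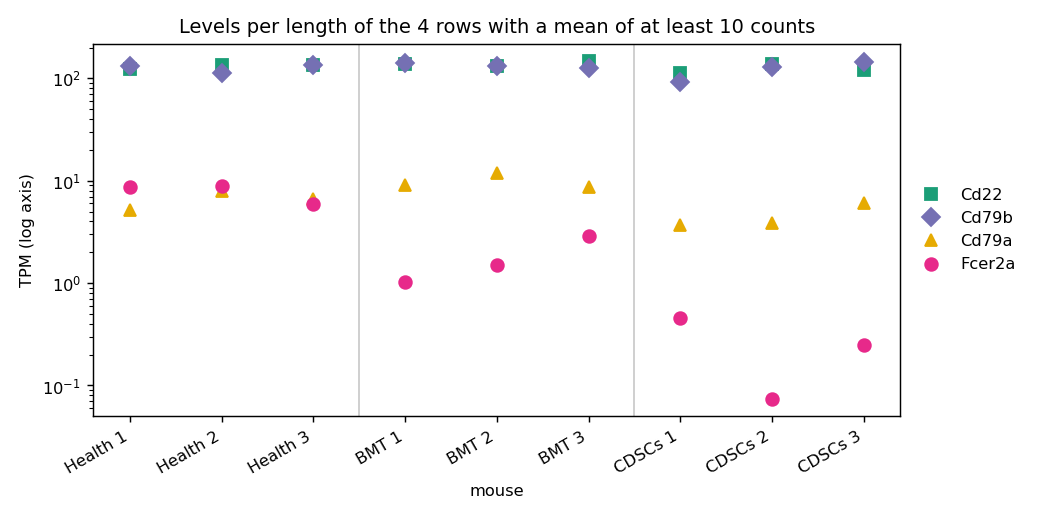
TPM of the 4 rows kept on a log y axis, with a point for each mouse, grouped as Health, BMT and CDSCs. Cd22 and Cd79b lie together at 92.6 to 148.2 TPM, Cd79a lies between 3.73 and 12.04, and Fcer2a spreads from 8.82 down to 0.0733.

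The rows most like Fcer2a over the 9 mice were taken as the highest of all correlations with it. The highest Pearson correlations of log2 CPM with it, among 12571 other genes, were those of Gm15396 (0.978), Frem3 (0.966), Ubr1 (0.963), Txndc12 (0.962) and 4833417C18Rik (0.962). Txndc12, for example, held 72, 54 and 94 counts in Health, 14, 9 and 25 in BMT and 6, 1 and 4 in CDSCs, an order without overlap like that of Fcer2a. The correlation was 0.614 for Cd22, 0.468 for Cd79a and 0.258 for Cd79b, which ranked 2058, 3290 and 4874. All of these values share the same 9 libraries and are a description, and the first 5, as the highest of 12571, cannot be set against those of the 3 B-cell rows.

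The nearest 3 annotated genes on each side of Fcer2a, Gm39121, Gm45231, Trappc5, Clec4g, Gm16553 and Cd209a, had row means of 0.111 to 3.67 counts. Within 100 kb on either side there were 17 rows, Fcer2a included, and 6 of them had a mean of at least 10 counts, namely Fcer2a, Mcemp1, Pet100, Camsap3, Stxbp2 and Xab2, which reached 3638. The order of group means seen for Fcer2a, with CDSCs below BMT and BMT below Health, was also found in 4 of the other 16, Mcemp1, Fcor, Gm39121 and Xab2, beside 15.8% of all 28221 rows with a count. The mice of Xab2 overlapped in every comparison. Mcemp1, nearer to Fcer2a than Stxbp2, held 18, 33 and 24 counts in Health, 13, 4 and 13 in BMT and 3, 5 and 5 in CDSCs, so Health was highest and the other groups overlapped. Fcor and Gm39121 had means of only 4.44 and 3.56 counts. These rows and Stxbp2 were singled out after their values were seen. Stxbp2, which encodes a protein of granule secretion, is annotated at chr8:3630955-3643644, 50.8 kb from Fcer2a when their lower ends are compared. The Stxbp2 row held 574, 621 and 283 counts in Health, 28, 10 and 53 in BMT and 66, 30 and 28 in CDSCs, so Health stood above both other groups, which overlapped with each other. Its log2 fold change was -3.68 (SE 0.512) for CDSCs over Health and -4.15 (SE 0.528) for BMT over Health, with adjusted p-values of 0.00181 and 0.00363 in edgeR's quasi-likelihood test. That test called 17.0% and 2.44% of all genes in these comparisons. Since Stxbp2 was picked for its values, these p-values are a description only. For CDSCs over BMT the log2 fold change of the Stxbp2 row was 0.47 (SE 0.535, adjusted p = 0.672), against -2.69 for the Fcer2a row. The quasi-likelihood test called neither row in that comparison.

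**Figure D4:**
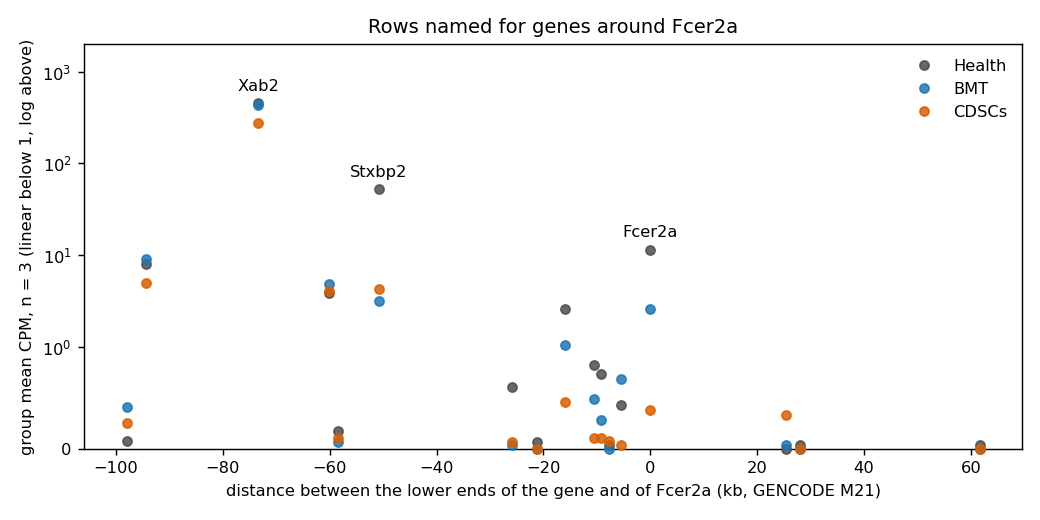
Mean CPM in Health, BMT and CDSCs (y axis, linear below 1 and logarithmic above) of the 17 rows annotated within 100 kb of Fcer2a, by the distance between lower gene ends in kb (x axis, GENCODE M21). The means of Fcer2a, Mcemp1, Fcor, Gm39121 and Xab2 run from Health at the top to CDSCs at the bottom, an order of means that 15.8% of all rows with a count have and in which the mice of Xab2 overlap, while the Stxbp2 row, 50.8 kb away, is high in Health and low in both other groups.

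Around the other rows the neighbours were mixed. Of the 6 nearest genes, 2 had a mean under 10 counts for Cd79a (Gm44970 and Rabac1), 1 for Cd79b (Gh) and 1 for Cd22 (Gm29439), and the others reached 6571 counts for Smarcd2 beside Cd79b. Lypd4, Dmrtc2, Rps19 and Arhgef1 completed those of Cd79a, Tcam1, Scn4a, Prr29 and Icam2 those of Cd79b, and Ffar1, Ffar2, Ffar3, D7Ertd128e and Mag those of Cd22. Beside the near-empty rows, 4 of 6 neighbours of Ms4a1 (Ms4a12, Ms4a13, Ms4a14 and 4930526L06Rik) were under 10 counts, but Ms4a5 had 580.7 and Ms4a7 21.8. For Cr2, 5 of 6 were under 10 (Gm37366, Gm37132, Gm37887, Gm38046 and Gm38194), and Cr1l, the gene of a related complement regulator, had 38.2.

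The other B-cell surface genes were taken as a list of 40, led by Cd72 and Icosl, of which 11 passed the filter. Between CDSCs and Health 4 of the 11 were higher and 2 lower, where 8.69% of all genes were called higher and 8.28% lower, and the median log2 fold change was 0.11 beside -0.02 over all genes. Icosl, the ligand of the T-cell costimulator ICOS, was lower in CDSCs (57.6 ± 12.9 CPM) than in Health (219.5 ± 53.1), at a log2 fold change of -1.99 (SE 0.22, adjusted p = 0.00054). H2-Ob, a chain of an MHC class II cofactor, was higher by 2.28 (SE 0.428, adjusted p = 0.007) and Cr1l by 2.68 (SE 0.511, adjusted p = 0.0075). Slamf6, a receptor of the SLAM family, was higher by 1.34 (SE 0.312, adjusted p = 0.0179) and Cd37, a tetraspanin, by 0.53 (SE 0.154, adjusted p = 0.0398). H2-Eb1, a class II chain that shares sequence with its relatives, had a log2 fold change of -2.38 (SE 0.672, adjusted p = 0.0369). Its mean of 9.22 counts lies under the limit of 10 used for the 6 rows, and a filter at that mean left 5 genes called, 4 higher and 1 lower. Slamf6 passed in 3, H2-Eb1 in 2 and Cd37 in 1 of the 6 fits that each left out a mouse, while Icosl, H2-Ob and Cr1l passed in all 6.

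Between BMT and Health 0 of these 11 genes were called by the quasi-likelihood test, where 0.994% of all genes were called higher and 1.45% lower. At an unadjusted p-value under 0.05 there were 4, and DESeq2 called 1 and the likelihood ratio test 2, where they called 709 and 699 of all genes. Cr1l (log2 fold change 1.76) and Icosl (-0.72) had the lowest p-values, with an adjusted p of 0.118 each in the quasi-likelihood test. Between CDSCs and BMT 1 was called, Icosl, with a log2 fold change of -1.26 (SE 0.217, adjusted p = 0.0355), where 0.7% of all genes were called lower and 0.326% higher. This call was lost in 4 of the 6 fits that each left out a mouse, with only the 6 mice compared and with the replicate block. The median over the list was 0.01 for BMT over Health and 0.20 for CDSCs over BMT. The Icosl row, like that of Fcer2a, had its highest mean in Health and its lowest in CDSCs.

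**Figure D5:**
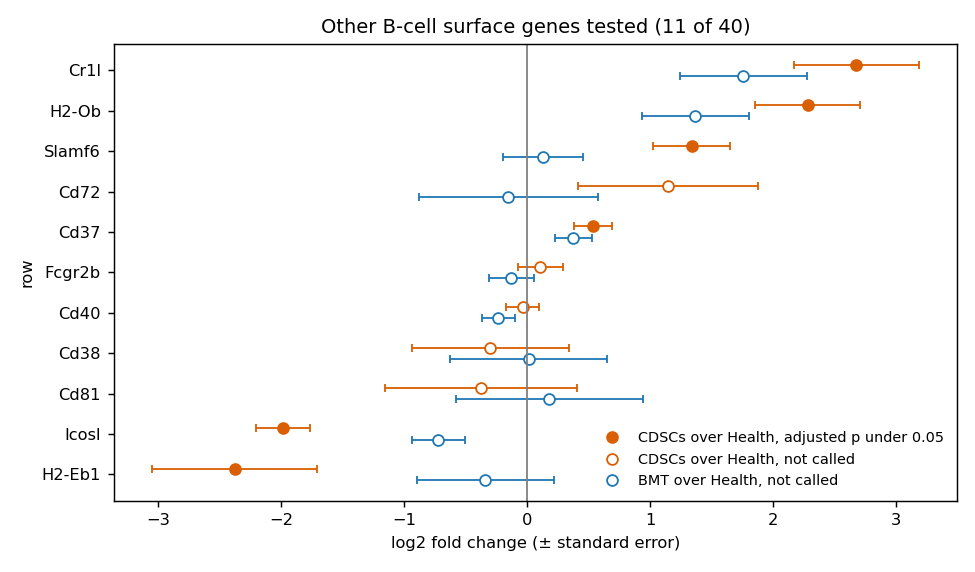
Log2 fold change (± SE) of the 11 tested genes of the B-cell surface list, for CDSCs over Health and BMT over Health, with filled points for genes called at an adjusted p-value under 0.05. CDSCs over Health has 4 genes called higher and 2 lower, and for BMT over Health all 11 points are open.

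Of the 30 genes of B-cell receptor signalling, led by Lyn and Ptpn6, 15 were tested, and 2 were higher and 2 lower in CDSCs than in Health, beside 8.69% and 8.28% of all genes, with a median of -0.03. Ptprc, which encodes the phosphatase CD45, had a log2 fold change of -0.80 (SE 0.151, adjusted p = 0.00702), and Igkc, the kappa constant region, one of -2.13 (SE 0.574, adjusted p = 0.0313). Pik3cd, a catalytic subunit of PI3K, was higher by 0.92 (SE 0.193, adjusted p = 0.0116), and Dok3, an inhibitory adaptor, by 0.49 (SE 0.122, adjusted p = 0.0224). Ptprc passed in 6, Pik3cd in 5, Dok3 in 2 and Igkc in 2 of the 6 fits that each left out a mouse. The quasi-likelihood test called 0 of 15 between BMT and Health, beside 2.44% of all genes, where 2 had an unadjusted p-value under 0.05 and neither DESeq2 nor the likelihood ratio test called any. Pik3cd (0.61, adjusted p = 0.143) and Ptprc (-0.41, adjusted p = 0.199) had the lowest p-values. The quasi-likelihood test also called 0 of 15 between CDSCs and BMT, beside 1.03% of all genes, with Igkc (-2.83, adjusted p = 0.0539) and Ptprc (-0.40, adjusted p = 0.202) first. There 4 had an unadjusted p-value under 0.05, and DESeq2 and the likelihood ratio test called 1 each, where they called 706 and 730 of all genes.

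Of 25 B-lineage transcription factors, led by Pax5 and Id3, 13 were tested. Id3, an inhibitor of E proteins, was the only gene of the 13 called between CDSCs and Health, beside 17.0% of all genes, with a log2 fold change of -0.52 (SE 0.133, adjusted p = 0.0259), and it passed in 3 of the 6 fits that each left out a mouse. The quasi-likelihood test called 0 of 13 between BMT and Health and between CDSCs and BMT, beside 2.44% and 1.03% of all genes, as did DESeq2 and the likelihood ratio test. At an unadjusted p-value under 0.05 there was 1 between BMT and Health and there were 2 between CDSCs and BMT. Id3 (-0.35, adjusted p = 0.212) and Tcf3 (0.19, adjusted p = 0.532) came first between BMT and Health, and Zfp318 (-0.44, adjusted p = 0.117) and Irf4 (1.18, adjusted p = 0.192) between CDSCs and BMT.

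The summed levels of rows named for other marrow cells are given beside those of Fcer2a. The summed level of 16 neutrophil genes, which Mmp8 and Mmp9 led and 13 of which had a mean under 10 counts, ran from 2536 to 4182 CPM in Health, from 1865 to 4044 in BMT and from 475.2 to 859.6 in CDSCs. Most of this sum was the row Mmp8, with means of 3096, 3020 and 596.0 CPM, while Mmp9 had 52.1, 52.1 and 52.8 in the same order. Of the 4 neutrophil genes tested, Mmp8 was called lower in CDSCs than in Health and than in BMT. Ltf held 0, 1 and 0 counts in Health, 16, 14 and 11 in BMT and 5, 4 and 5 in CDSCs. It was called higher in both transplanted groups than in Health, with a mean of 6.22 counts, under the limit of 10 used for the 6 rows. Over all genes, 17.0% were called between CDSCs and Health, 2.44% between BMT and Health and 1.03% between CDSCs and BMT. The summed level of 16 stromal and endothelial genes, led by Col1a2 and Pdgfrb, with 9 under 10 counts, ran from 198.7 to 2561 CPM in Health, from 587.5 to 1837 in BMT and from 1110 to 14044 in CDSCs. Most of this sum was Col1a2, with means of 931 ± 1332, 947 ± 677 and 6140 ± 6741 CPM (SD). Col3a1 had 13.7 ± 18.1, 19.0 ± 13.2 and 92.7 ± 96.3, while Pdgfrb had 37.6, 44.4 and 45.0. Of the 7 stromal and endothelial genes tested, 1 was called between CDSCs and Health, Pecam1, which was lower in CDSCs. This was 14.3%, beside 17.0% of all genes. For 12 monocyte and macrophage genes, led by Mrc1 and Vcam1, with 5 under 10 counts, the summed level was 20.1 to 23.1 CPM in Health, 47.6 to 59.7 in BMT and 61.9 to 74.6 in CDSCs. Most of this difference was the row Mrc1, with means of 3.23, 25.1 and 45.0 CPM, while Csf1r had 1.23, 1.38 and 1.19 and Cd68 6.30, 9.60 and 6.11. The part of these differences in the values of the 6 rows was not tested. The early B-cell list, led by Il7r and Bst1, with 9 of 12 genes under 10 counts, had 97.8 to 127.5 CPM in Health, 160.3 to 320.2 in BMT and 110.7 to 326.1 in CDSCs. Its rows went different ways. Il7r had means of 60.1, 120.4 and 155.9 CPM in the same order, with 3037 counts in CDSCs mouse 1. Bst1 had 37.7, 46.8 and 31.6 and Dntt 15.6, 53.8 and 8.89, both lowest in CDSCs. T and NK cell genes, led by Cd3e and Zap70, with 11 of 19 under 10 counts, spanned 434.1 to 472.5 CPM in Health, 471.8 to 510.3 in BMT and 485.1 to 523.3 in CDSCs. Erythroid genes, led by Sptb and Hba-a1, with 8 of 15 under 10 counts, had 321.5 to 863.6, 428.6 to 458.7 and 318.6 to 525.5 CPM in the same order. The 8 listed follicular dendritic cell genes, led by Mfge8 and Clu, with 5 under 10 counts, had 147.2 to 169.8, 176.7 to 184.9 and 164.4 to 187.3 CPM.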

How the data were processed

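RNA-seq of BM of 9 mice was used, with groups taken from the labels. The authors used FastQC and MultiQC for quality control, Trim Galore for trimming, HISAT2 for alignment (build GRCm38 per the submitters' processing notes) and featureCounts for counting. Tool versions, gene annotation and strand setting are not given in the sources used here, so overlapping and antisense genes could not be told apart. The deposited counts are whole numbers per gene name, and the authors derived the deposited TPM from them. The counts were used for all tests and TPM for levels between genes and, as log2(TPM + 1), for 1 alternative of the members' differences.

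Genes were filtered with filterByExpr, scaled by TMM and fitted with group as the only term over all 9 mice in edgeR 4.0.16 (R 4.3.3), with a two-sided quasi-likelihood test and Benjamini-Hochberg adjustment over 12572 genes. CPM were counts over the library total, and correlations used TMM-scaled log2 CPM with a prior count of 2. Alternatives were DESeq2 1.42.0, the likelihood ratio test, scaling by library size, other filters, log2(TPM + 1), only the 6 mice compared, a replicate block and each mouse left out. The script was tested on simulated data. Members, gene lists and markers were chosen with earlier results of these data known, and the 3 other B-cell lists exclude the 6 genes.

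The rule for named genes took the 6 members, up to 5 called genes with the lowest p per B-cell list and comparison or, with none called, the 2 with the lowest p, the 5 genes most correlated with Fcer2a, the marker genes at 0 in all mice (1 is not reported here), the 2 highest of each list and the 3 nearest genes on each side. The genes that every cell uses served the check of names. No pair of mice was a repeated library (chi-square per gene of 6.97 to 94.6 within groups). Same-numbered mice of different groups correlated at -0.34 to 0.22 in their deviations from group means, over 0.1 in 3 of 9 pairs. These values gave no clear sign that the numbers paired the mice, but they cannot exclude it.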

Additional observations from a re-analysis of the deposited data

Results flagged for a closer look

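Icosl was lower in CDSCs than in BMT, both set against Health: the difference itself, tested in edgeR's quasi-likelihood fit, was a log2 fold change of -1.26 (SE 0.217, adjusted p = 0.0355). Every CDSCs mouse (389 to 682 counts) was below every BMT mouse (1129 to 1586 counts), but 12.6% of all genes tested had CDSCs below BMT with no overlap of CPM. Icosl kept this call in 2 of the 6 fits that each left out a mouse, and lost it without BMT mouse 1, 2 or 3 or CDSCs mouse 2. Over all alternatives its highest adjusted p was 0.158.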

How the results depend on the processing

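The direction of the Fcer2a row held in all 3 comparisons under every alternative run. Its groups did not overlap, so leaving out a mouse could not have reversed it. The row was chosen from these contrasts, so neither this nor its calls below are support for the difference. The log2 fold change of the row ranged, over the fits that each left out a mouse, from -5.70 to -4.48 for CDSCs over Health and from -3.47 to -2.19 for CDSCs over BMT, with the lowest values without CDSCs mouse 1. On log2(TPM + 1) these were -2.80 and -1.11. For BMT over Health, Cd79b became 0.082 and Cd22 0.087 on that scale, and Cd22 0.065 with library size scaling. Fcer2a was called in 13 of 13 alternatives for CDSCs over Health, 8 of 13 for BMT over Health and 3 of 13 for CDSCs over BMT. Genes called between CDSCs and Health numbered 1273 with only the 6 mice compared, and 1071 to 2640 with a mouse left out (1071 without Health mouse 1, 1114 without Health mouse 2, 1190 without CDSCs mouse 2). Between BMT and Health there were 709 with DESeq2, 699 with the likelihood ratio test, 948 without a filter, 807 with only the 6 mice compared, and 102 to 212 with a mouse left out (105, 102 and 127 without BMT mouse 1, 2 or 3, 120 and 149 without Health mouse 1 or 2). Between CDSCs and BMT there were 706, 730, 1260 and 7 under the same 4 settings, and 2 to 491 with a mouse left out (2 without BMT mouse 1, 19 without BMT mouse 2, 73 without BMT mouse 3, 39 without CDSCs mouse 2, 491 without CDSCs mouse 3). The replicate block, on numbers not shown to pair the mice, gave 197 genes between BMT and Health, 22 between CDSCs and BMT, 0 surface genes between CDSCs and BMT and 0 transcription factors between CDSCs and Health. The cause of these shifts was not tested.

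Of the surface list, 10 genes were called between CDSCs and Health without a filter and 3 to 6 with a mouse left out (3 without CDSCs mouse 2, Health mouse 2 or Health mouse 3). Between BMT and Health 1 was called with DESeq2, 2 with the likelihood ratio test, 3 without a filter and 1 with only the 6 mice compared. Between CDSCs and BMT these were 3 with the likelihood ratio test, 2 without a filter, 0 with only the 6 mice compared and 0 to 1 with a mouse left out. Of the signalling list, 2 to 5 were called between CDSCs and Health with a mouse left out, 1 between BMT and Health without a filter, and between CDSCs and BMT 1 with DESeq2, 1 with the likelihood ratio test, 3 without a filter and 0 to 1 with a mouse left out (1 without BMT mouse 2). Of the transcription factors, 3 were called between CDSCs and Health without a filter, all 3 of them higher (Bach2, Pax5 and Irf4, named after their values were seen, each with its highest count in CDSCs mouse 1) and without Id3, the 1 lower gene of the filtered fit, 0 with only the 6 mice compared and 0 to 3 with a mouse left out, and between CDSCs and BMT 4 without a filter and 0 to 1 with a mouse left out. For the 12 called results of list genes, 118 of 154 alternative values kept direction and threshold, 36 lost the threshold and 0 reversed. At 3 mice per group and 1 to 41 counts in the BMT and CDSCs mice, depth limits the precision of the Fcer2a row.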
